A study of Caenorhabditis elegans with 4 samples.

Results

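The furrow collagens are 6 genes of Caenorhabditis elegans, dpy-2, dpy-3, dpy-7, dpy-8, dpy-9 and dpy-10, whose products line the circumferential furrows of the cuticle. They were taken by sequence name (T14B4.6, EGAP7.1, F46C8.6, C31H2.2, T21D12.2 and T14B4.7), and all 6 were found among the 16623 genes that both of the authors' deposited tables hold, of 17491 genes in either. The cuticle is an extracellular coat, made largely of collagens, that the epidermis secretes anew before each moult. Furrow collagen transcripts come early in each moulting cycle, and loss of any of these proteins removes the furrows and leaves a short, stout (dumpy) animal. The furrow band is also known as part of a sensor of cuticle damage: its loss switches on antimicrobial, osmotic and detoxification genes in the epidermis.

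RNA was sequenced from larvae at the L2/L3 stage that had grown for 24 h at 22 °C from starved, synchronized L1 larvae and then spent 2 h on 1 mM auxin. Strain AM11 carries top-2::degron::GFP and dpy-27::degron::GFP, and strain AM12 carries top-1::degron::GFP and dpy-27::degron::GFP, each with 2 libraries, and they are written here as the TOP-2/DPY-27 and the TOP-1/DPY-27 depletion. TOP-2 and TOP-1 are topoisomerases, enzymes that relieve the twisting and tangling of DNA, and DPY-27 is the subunit peculiar to condensin DC, which lowers expression from both X chromosomes of hermaphrodites. A degron tag marks its protein for destruction once auxin is given, in animals that make the plant protein TIR1; it leaves the transcript in place, so RNA levels of the targeted genes do not check the labels. The labels do not name the TIR1 transgene or the cells in which it is active. DPY-27 was tagged in both depletion strains, so neither comparison isolates a topoisomerase. Both tables set a depletion against the strain CA1200 kept on auxin for the same time, whose genotype is not in the labels and whose libraries are not analysed here one by one. Depletion therefore cannot be told apart from a difference between strains. With the control in common, a like change in both tables is not independent evidence. That replicates, 2 per condition, were biological is stated, but not that they were separate cultures, and p-values then measure only the spread between these libraries.

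The tables hold, for each gene, a mean normalized count over all libraries of the comparison, a log2 fold change of depletion over control, its standard error (SE) and an adjusted p, and no value for any library. Genes with an adjusted p below 0.05 in the DESeq2 test run by the authors are those called here. The level of each group could be solved from the mean and the fold change, taking 2 libraries a group, which for the control is an assumption. Solved in this way, the control level of 9070 genes with a mean of at least 100 came out the same from both tables to within 0.632% for 95% of the genes, after a constant 1.03-fold difference of scale. The levels have no error of their own.

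The furrow collagens were abundant, and in the control they lay close together. Abundance was taken from the mean normalized count in the authors' deposited tables, over depletion and control libraries together. By that mean they ranked between 607 and 1529 of 16927 genes in the TOP-2 table and between 673 and 1666 of 17187 in the TOP-1 table. Levels between genes were compared per kilobase of exon, as normalized counts. On that scale the control level, solved from the TOP-2 table, was highest for dpy-8 at 3705 and next for dpy-3 at 3394. It was 2756 for dpy-7, 2465 for dpy-9, 2282 for dpy-2 and 1822 for dpy-10. The X-linked genes dpy-3, dpy-7 and dpy-8 thus held the highest control levels, and the range from end to end was 2.03-fold. Each step between neighbours in this order was between 8.02% and 25.2%. The deposited SEs correspond to a spread between libraries of about 40.9% to 46.5% (coefficient of variation). They belong to each gene's change over control and do not measure a difference between genes within the control. Whether neighbours in this order differ was therefore not tested.

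**Figure D1:**
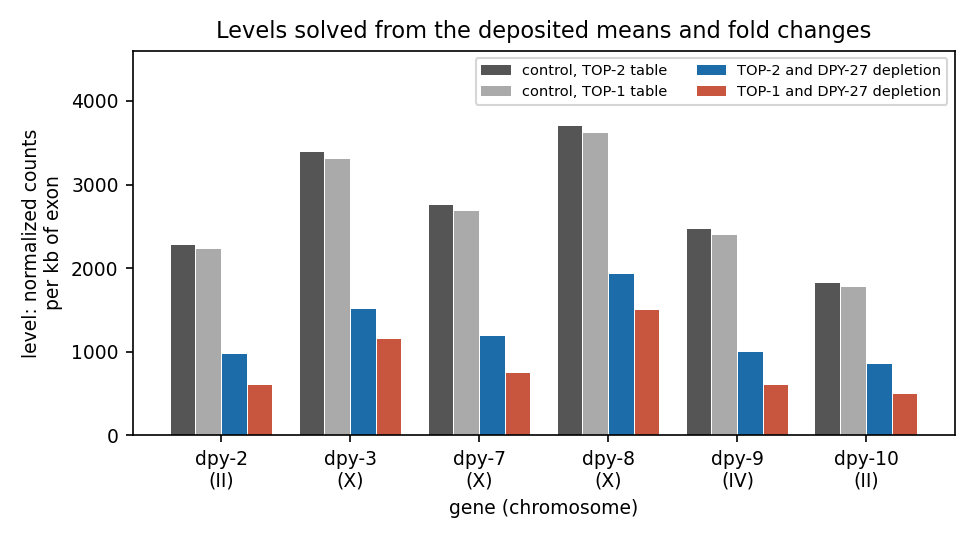
Bars give the level of each furrow collagen gene in normalized counts per kilobase of exon, solved from the deposited means and fold changes, for the control (grey, once from each table) and for each depletion. The bars have no error; every depletion bar is shorter than its control bars, and dpy-8 is the highest in each group at 3705 (control, TOP-2 table), 1928 (TOP-2/DPY-27 depletion) and 1505 (TOP-1/DPY-27 depletion).

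With TOP-1 and DPY-27 both depleted, all 6 furrow collagen genes fell, by between 2.40-fold (dpy-8) and 3.96-fold (dpy-9), with 2 depletion libraries. Of all genes tested in that table, 12.8% were called lower. The members' median log2 fold change was -1.85, against -0.04 for all genes whose mean was 10 or more. Their summed level, in normalized counts, went from 20033 in the control to 6473, or 32.3% of the control.

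For dpy-9, a collagen on chromosome IV, the level solved from the TOP-1 table went from 2520 normalized counts in the control to 637 after TOP-1/DPY-27 depletion. Its log2 fold change in the authors' deposited table was -1.98 ± 0.50 (SE, adjusted p 0.00049), a 3.96-fold fall with a 95% interval from 2.02-fold to 7.76-fold. For dpy-7, whose protein is the usual immunological marker of the furrows, the level went from 3077 to 854 normalized counts. Its fold change was -1.85 ± 0.46 on the log2 scale (adjusted p 0.000454) in the authors' deposited table. At these estimates dpy-9 kept 25.3% and dpy-7 27.8% of the control level, and both intervals stay clear of no change.

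The collagen genes dpy-2 and dpy-10 are neighbours on chromosome II, on opposite strands and transcribed away from each other, with no gene of either deposited table between them. The level of dpy-2 went from 2947 to 804 normalized counts after TOP-1/DPY-27 depletion, and that of dpy-10 from 2836 to 789. Log2 fold changes of -1.87 ± 0.50 for dpy-2 (adjusted p 0.00134) and -1.84 ± 0.54 for dpy-10 (adjusted p 0.0038) stood in the authors' deposited table. Each SE belongs to a gene's change over control, so whether dpy-2 and dpy-10 differ was not tested.

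The smallest falls after TOP-1/DPY-27 depletion were those of dpy-3 and dpy-8, both on the X. From a control level of 3179 normalized counts, dpy-3 went to 1111, and dpy-8 from 5474 to 2277. The authors' deposited table gave -1.52 ± 0.49 for dpy-3 (adjusted p 0.00876) and -1.27 ± 0.48 for dpy-8 (adjusted p 0.0332) on the log2 scale. The whole range of the 6 log2 fold changes was 0.72, and their SEs were 0.46 to 0.54. These SEs do not measure a difference between genes of the same libraries, so the order among the members was not tested.

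Per kilobase of exon, the TOP-1/DPY-27 depletion left dpy-8 highest at 1505 normalized counts and dpy-3 next at 1156. It left dpy-7 at 745, dpy-2 and dpy-9 level at 607 each, and dpy-10 lowest at 495. The end-to-end range was then 3.04-fold, against 2.03-fold in the control of the same table. The order differed from that of the control only in dpy-2 and dpy-9, whose levels lay within 0.0722% of each other. After TOP-2/DPY-27 depletion the order was that of the control, from 1928 for dpy-8 to 856 for dpy-10.

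With TOP-2 and DPY-27 both depleted, none of the 6 passed DESeq2's test in either direction (adjusted p between 0.11 and 0.353), where 7.47% of all genes tested were called lower and 14.1% higher. At an unadjusted p under 0.05, 3 members (dpy-2, dpy-7 and dpy-9) were lower, against 11.1% of all genes in the table. The estimates nevertheless lay between -0.94 and -1.30 on the log2 scale, with a median of -1.19, against -0.03 for all genes whose mean was 10 or more. The members' summed level was 20537 normalized counts in the control and 9437 after the depletion.

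Gene by gene, the TOP-2 table gave a level of 2585 normalized counts in the control and 1051 after depletion for dpy-9, and of 3161 and 1361 for dpy-7. It gave 3021 and 1288 for dpy-2, 2903 and 1363 for dpy-10, 3261 and 1458 for dpy-3, and 5606 and 2917 for dpy-8. In every case the depletion level is the lower, at between 40.6% and 52.0% of the control level.

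**Figure D2:**
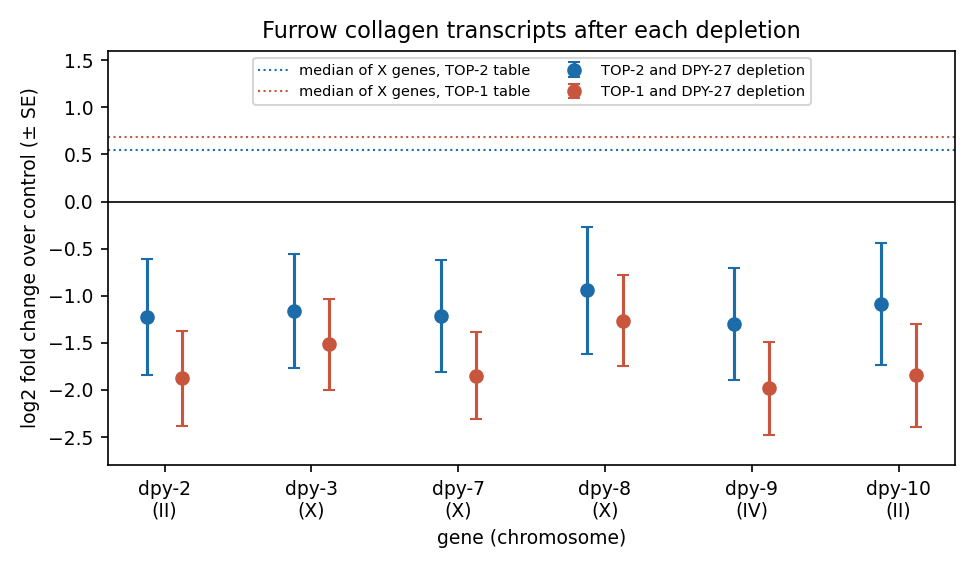
Points are the deposited log2 fold changes over control and bars their SE, for each furrow collagen gene and depletion; dotted lines mark the median of X genes in each table, 0.54 and 0.68. Members lie between -0.94 and -1.30 in the TOP-2 table, with SEs of 0.59 to 0.67, and between -1.27 and -1.98 in the TOP-1 table, with SEs of 0.46 to 0.54.

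For the log2 fold changes themselves, the TOP-2 table, the authors' deposited table for strain AM11, had dpy-9 at -1.30 ± 0.60 (adjusted p 0.11), dpy-2 at -1.23 ± 0.62 (0.148) and dpy-7 at -1.22 ± 0.59 (0.134). The same authors' deposited table had dpy-3 at -1.16 ± 0.60 (adjusted p 0.169), dpy-10 at -1.09 ± 0.65 (0.245) and dpy-8 at -0.94 ± 0.67 (0.353). At these SEs a member would have had to reach between -1.51 (dpy-7) and -1.71 (dpy-8) to be called. In the TOP-1 table sizes between -1.12 (dpy-7) and -1.32 (dpy-10) were enough. The 95% interval of the dpy-8 ratio in the TOP-2 table runs from a 4.78-fold fall to a rise, and that of dpy-9 from a 1.09-fold to a 5.54-fold fall.

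No member differed between the depletions by the test of the difference itself. Subtracting the TOP-1 table's log2 fold change from the TOP-2 table's, so that the control both share drops out, left a difference of between 0.32 ± 0.83 (dpy-8) and 0.75 ± 0.85 (dpy-10), with a median of 0.64 against 0.04 for all 13027 genes tested. It was above 0 for 6 of 6 members and for 53.3% of all genes tested. The Benjamini-Hochberg adjusted p of the Wald z was 1.00 for each, where 0.115% of genes were called, and no member had an unadjusted p under 0.05. The intervals are wide, from -0.90 to 2.41 for dpy-10 and from -1.30 to 1.95 for dpy-8, so a similar response is not shown either. The members come from the same 4 depletion libraries and are not replicates of each other.

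**Figure D3:**
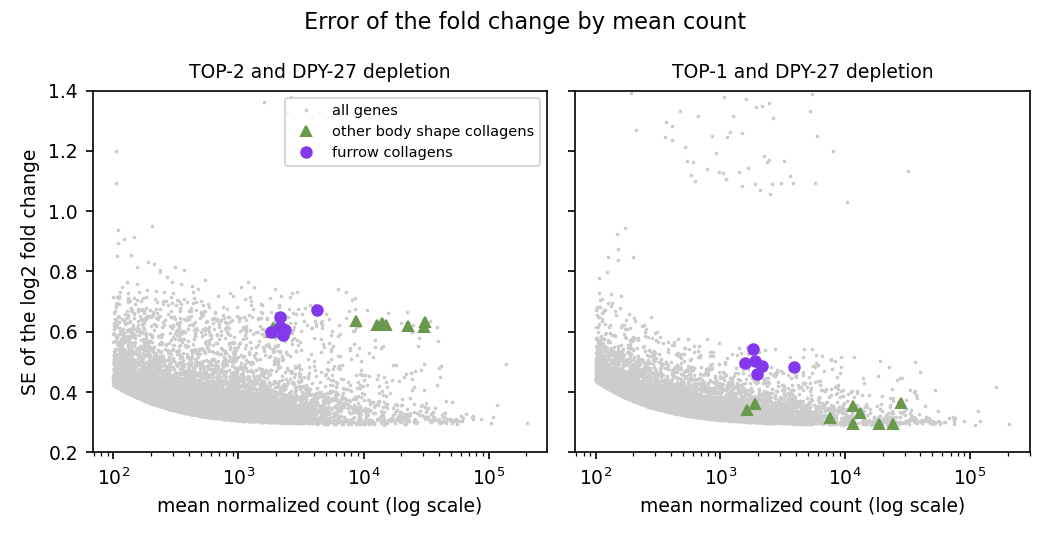
Each point is a gene with a mean of 100 normalized counts or more, placed by that mean (log scale) and by the SE of its log2 fold change, with furrow collagens as circles and other body shape collagens as triangles. Furrow collagens sit high for their level in both panels, while the abundant body shape collagens do so at left (0.60 to 0.64) and not at right (0.29 to 0.36).

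The error on the furrow collagens was large for genes of their abundance. The SE of each was above that of at least 94.2% of genes with a mean within 1.5 times its own in the TOP-2 table and of at least 95.1% in the TOP-1 table. Medians among those genes of like mean were 0.35 and 0.33. In terms of spread between libraries, the members' SEs correspond to a coefficient of variation of 40.9% to 46.5% in the TOP-2 table and 31.8% to 37.6% in the TOP-1 table. The matching values for genes of like mean were 23.9% to 24.2% and 22.6% to 22.8%.

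Other abundant body shape collagens had a like SE in the TOP-2 table and a smaller one in the TOP-1 table. For the 9 of them with a mean of at least 1000, among them dpy-13, sqt-1 and rol-6, the SEs in the authors' deposited tables ran from 0.60 to 0.64 in the TOP-2 table and from 0.29 to 0.36 in the TOP-1 table. For the furrow collagens they ran from 0.59 to 0.67 and from 0.46 to 0.54. Large SEs were shared by the wider family: over the cuticle collagens with such a mean (66 and 64 genes) the median SE was 0.61 and 0.40 and the highest 1.38 and 1.58, against medians of 0.34 and 0.33 for all genes of such a mean. The control libraries enter both tables. An SE pools both groups of its table, so it cannot be assigned to a library here.

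The X-linked members lay on the other side of 0 from the median of their chromosome. With DPY-27 targeted in both strains, X genes had a median log2 fold change of 0.54 in the TOP-2 table and 0.68 in the TOP-1 table, against -0.13 and -0.14 for autosomal genes, with a mean of at least 10. Of X genes tested in the TOP-1 table, 3.57% were called lower, 83 of 2325, and dpy-3, dpy-7 and dpy-8 are 3 of these. Only 1.52% of the 2112 X genes with a mean of at least 10 had a log2 fold change below that of dpy-7, 2.70% below that of dpy-3 and 3.74% below that of dpy-8. In the TOP-2 table the shares were 2.91% for dpy-7, 3.29% for dpy-3 and 4.82% for dpy-8.

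Measured from the median of its own chromosome class, dpy-7 stood at -2.53 after TOP-1/DPY-27 depletion, the lowest of the 6 on that scale. The autosomal dpy-9 stood at -1.84, dpy-2 at -1.73 and dpy-10 at -1.70. On this scale the members on the X are the lower ones, while on the deposited scale the autosomal members had the lower median, at -1.87 against -1.52. With this centring the Wald test recomputed from the deposited SEs called 2 members lower in the TOP-2 table, dpy-7 at -1.76 (adjusted p 0.0181) and dpy-3 at -1.71 (adjusted p 0.0277), where the deposited scale called 0. The same centring called 6.44% of all genes tested in that table lower, and 6.52% of its X genes.

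Among cuticle collagens the furrow genes were lower than the middle of the family but not at its end. Of 138 cuticle collagens (col genes and other body shape collagens) tested in the TOP-1 table, 33 were called lower and 17 higher, and for the TOP-2 table the numbers were 26 and 13 of 136. As shares these are 23.9% lower and 12.3% higher, against 12.8% and 17.1% of all genes tested, and 19.1% and 9.56%, against 7.47% and 14.1%. Their median log2 fold change, over those with a mean of at least 10, was -0.61 in the TOP-1 table and -0.80 in the TOP-2 table. Of 116 such collagens in the TOP-1 table, 20 had a lower fold change than dpy-9 and 35 a lower one than dpy-8. The matching numbers in the TOP-2 table were 36 and 50 of 111. The sources used here do not say whether reads that match several genes were counted, so single collagens with close relatives are uncertain.

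**Figure D4:**
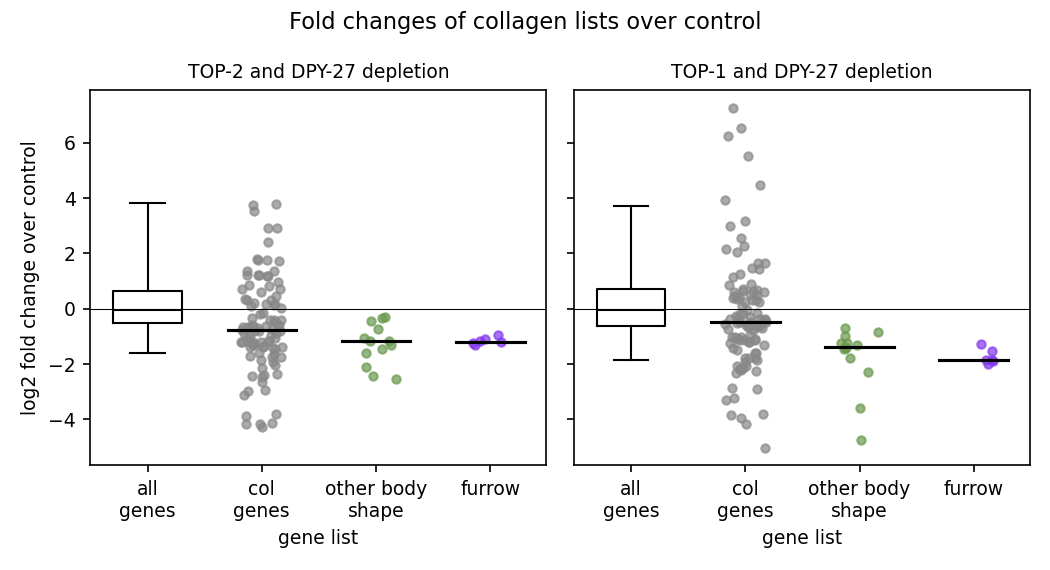
Log2 fold changes over control in each table, for all genes with a mean of at least 10 (box with median and quartiles, whiskers from the 5th to the 95th percentile), for col genes, other body shape collagens and furrow collagens (points, with the median as a bar). Furrow collagens lie around -1.19 (left) and -1.85 (right), within the range of the col genes.

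Other body shape collagens, whose mutants are dumpy, roller, squat, blistered or long, were mostly called lower in the TOP-1 table and mostly not called in the TOP-2 table. After TOP-1/DPY-27 depletion 10 of 13 tested fell and 3 did not pass, with a list median of -1.38 against -0.04 for all genes, of which 12.8% of those tested fell. The authors' deposited table had sqt-1 at -2.27 ± 0.33 (adjusted p 2.77e-10), sqt-2 at -1.76 ± 0.34 (3.04e-06), dpy-4 at -1.38 ± 0.29 (3.17e-05) and sqt-3 at -1.47 ± 0.36 (0.000408). After TOP-2/DPY-27 depletion 1 of 13 fell, lon-3 (a collagen gene whose mutants are long) at -1.61 ± 0.60 (adjusted p 0.0371), a value of the authors' deposited table. The other 12 did not pass, with a list median of -1.17, where 7.47% of all genes tested fell. By the test of the difference itself, no body shape collagen that could be tested differed between the depletions. The SEs of the abundant ones were 0.60 to 0.64 in the TOP-2 table and 0.29 to 0.36 in the TOP-1 table. The furrow collagen median in the 2 tables was -1.85 and -1.19, and the difference between the lists was not tested.

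Among genes that build and secrete collagen most did not pass in either table. These enzymes hydroxylate the collagen chains, carry them out of the cell, trim them and cross-link them in the cuticle. After TOP-1/DPY-27 depletion 4 of 17 tested fell, 0 rose and 13 did not pass, with a list median of -0.49, where 12.8% of all genes tested fell and 17.1% rose. In the authors' deposited table sec-23, a coat protein of the vesicles that leave the endoplasmic reticulum, was at -1.87 ± 0.34 (adjusted p 6.6e-07). The prolyl 4-hydroxylase subunit genes phy-2 and dpy-18 were at -1.57 ± 0.32 (1.08e-05) and -1.55 ± 0.35 (8.4e-05) in that authors' deposited table, and tfg-1, of the same export route as sec-23, at -0.90 ± 0.31 (0.016).

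After TOP-2/DPY-27 depletion 3 of 17 fell, 1 rose and 13 did not pass, with a list median of -0.37, where 7.47% of all genes tested fell and 14.1% rose. Those that fell in the authors' deposited table were dpy-18 at -1.36 ± 0.34 (adjusted p 0.000625), dpy-11, a thioredoxin-like enzyme of the epidermis, at -1.28 ± 0.35 (0.00212), and phy-2 at -1.06 ± 0.35 (0.0165). The tetraspanin gene tsp-15, needed for the oxidase that cross-links the cuticle, rose, by 1.23 ± 0.40 on the log2 scale (adjusted p 0.0135) in the authors' deposited table. Transcripts of bli-4, the furin-like protease that trims procollagens, and of bli-3, that oxidase, did not pass in either table, at estimates of -0.67 ± 0.30 and -0.38 ± 0.33 by the authors' deposited table for the TOP-1/DPY-27 depletion.

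**Figure D5:**
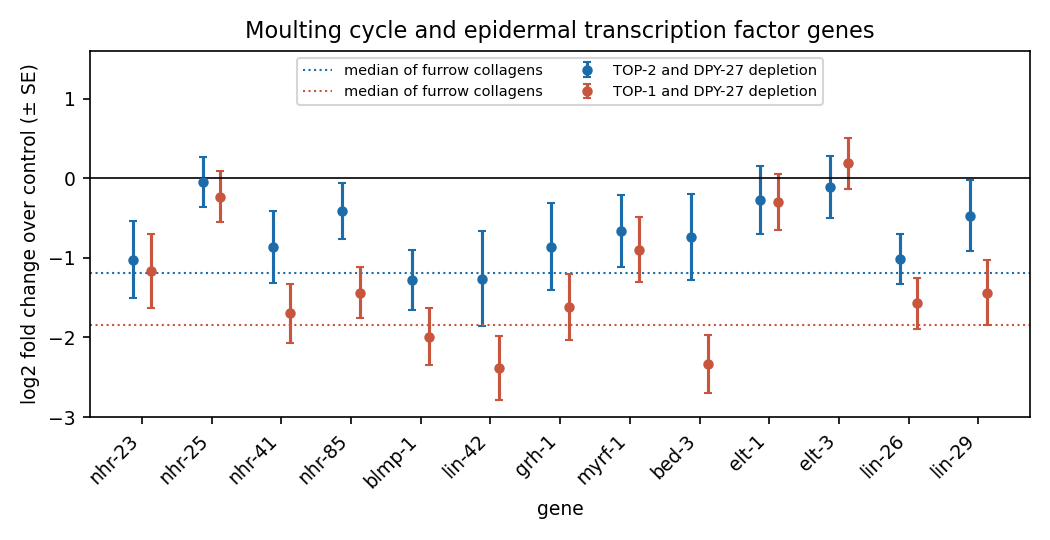
Points are deposited log2 fold changes over control with their SE for 13 transcription factor genes of the moulting cycle and the epidermis; dotted lines mark the furrow collagen median in each table, -1.19 and -1.85. In the TOP-1 table lin-42, bed-3 and blmp-1 lie lowest, while nhr-25, elt-1 and elt-3 lie near 0.

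Most transcription factor genes of the moulting cycle and the epidermis were lower after TOP-1/DPY-27 depletion. Of 13 tested 9 fell, 0 rose and 4 did not pass, with a list median of -1.44, where 12.8% of all genes tested fell. In the authors' deposited table bed-3, a zinc finger factor of the moulting cycle, stood at -2.34 ± 0.37 (adjusted p 5.37e-09), and lin-42, the period-like repressor that paces the cycle, at -2.39 ± 0.40 (6.72e-08). The transcription factor gene blmp-1, which acts on cyclic epidermal genes, was at -1.99 ± 0.36 (3.85e-07), and lin-26, which keeps epidermal fate, at -1.57 ± 0.32 (9.6e-06) in that authors' deposited table. The nuclear receptor gene nhr-23, a driver of moulting and of dpy-7 expression, was at -1.17 ± 0.47 (adjusted p 0.0431) in the authors' deposited table.

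After TOP-2/DPY-27 depletion 2 of the 13 fell, 0 rose and 11 did not pass, with a list median of -0.74, where 7.47% of all genes tested fell. The authors' deposited table gave blmp-1 at -1.28 ± 0.38 (adjusted p 0.00565) and lin-26 at -1.01 ± 0.31 (0.00881), and nhr-23, which did not pass, at -1.02 ± 0.48 (0.121). The epidermal GATA factor genes elt-1 and elt-3 did not pass in either table. Their estimates in the authors' deposited tables were -0.27 ± 0.43 and -0.12 ± 0.39 in the TOP-2 table, and -0.30 ± 0.35 and 0.18 ± 0.32 in the TOP-1 table. No factor gene of this list differed between the depletions by the Wald test of the difference, where the lowest adjusted p was 0.787 (bed-3). Position in the moulting cycle was not recorded in the labels, and its part in the furrow collagen values was not tested.

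Of epidermal genes that are known to rise when furrow collagens are lost, some rose and few fell. Of 15 tested 6 rose in each table, and 2 fell after TOP-2/DPY-27 depletion and 1 after TOP-1/DPY-27 depletion. The shares of all genes tested that rose were 14.1% and 17.1%. Those that fell were 7.47% and 12.8%, against 13.3% and 6.67% of this list, so the number of falls is near the background. After TOP-2/DPY-27 depletion the list median was 1.39. Of the 10 antimicrobial peptide genes (nlp and cnc) in the list 6 rose, cnc-3 fell and nlp-28, cnc-2 and cnc-11 did not pass. The authors' deposited table had nlp-29 at 2.78 ± 0.47 (adjusted p 1.09e-07), nlp-30 at 2.39 ± 0.36 (1.82e-09), cnc-4 at 2.36 ± 0.52 (8.78e-05) and nlp-34 at 1.93 ± 0.39 (1.39e-05). The other genes that rose were nlp-27 and nlp-31, and cnc-3 stood at -1.27 ± 0.32 (adjusted p 0.000814) in that authors' deposited table.

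After TOP-1/DPY-27 depletion the list median was 0.59. In the authors' deposited table nlp-27 was at 1.64 ± 0.33 (adjusted p 5.96e-06), nlp-29 at 1.91 ± 0.50 (0.000847) and gst-4, the glutathione S-transferase commonly used as a detoxification reporter, at 1.84 ± 0.47 (0.000692), with cnc-4, nlp-30 and nlp-31 the others that rose. The osmotic response genes did not share that direction: gpdh-1, the glycerol-producing enzyme gene induced by osmotic stress, did not pass in either table, and the related gpdh-2 fell in both. The authors' deposited tables had gpdh-1 at -0.16 ± 0.95 and gpdh-2 at -1.22 ± 0.35 (adjusted p 0.00333) after TOP-2/DPY-27 depletion, and -0.58 ± 0.81 and -1.20 ± 0.31 (adjusted p 0.000817) after TOP-1/DPY-27 depletion. For gst-4 the authors' deposited table gave 0.75 ± 0.55 after TOP-2/DPY-27 depletion, which did not pass (adjusted p 0.37). The other detoxification gene of the list, gcs-1, did not pass in either of the authors' deposited tables. Its estimates were -0.49 ± 0.33 (TOP-2 table) and -0.37 ± 0.31 (TOP-1 table).

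Genes of the signalling route between damage sensing and these responses were mixed. After TOP-1/DPY-27 depletion 3 of 17 rose, 4 fell and 10 did not pass (list median -0.57), and after TOP-2/DPY-27 depletion 3 rose, 1 fell and 13 did not pass (median -0.17). Of all genes tested 17.1% rose and 12.8% fell in the TOP-1 table, and 14.1% and 7.47% in the TOP-2 table, so the number of this list that rose is near the background. The secreted factor genes osm-7 and osm-11 and the G protein gene gpa-12, which acts upstream of nlp-29, rose in each. Of these osm-11 and gpa-12 lie on the X, whose genes had medians of 0.54 (TOP-2 table) and 0.68 (TOP-1 table). Those that fell in the TOP-1 table included osm-8, a mucin-like gene whose loss turns on gpdh-1, at -1.86 ± 0.41 (adjusted p 5.76e-05) in the authors' deposited table, and dcar-1, a receptor upstream of nlp-29, at -1.31 ± 0.32 (0.000288). The others were ptr-23, of a patched-related family and a genetic partner of osm-8, and tpa-1, a protein kinase C.

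The gene osm-8 was also among those most like the furrow collagens. Likeness was taken as the distance between a gene's 2 log2 fold changes and the members' medians (-1.19 and -1.85), over 2 comparisons with a common control and 9064 other genes with a mean of at least 100 in both tables. The 5 nearest were B0563.6, egl-2 (a potassium channel), osm-8, col-130 and glb-19 (a globin), at distances of 0.01, 0.01, 0.03, 0.05 and 0.05. The members themselves lay at distances of up to 0.63, and 408 other genes were nearer than the farthest member, so many genes match this pattern as closely.

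Markers of some other cell types moved in the same tables. Of all genes tested 14.1% rose and 7.47% fell in the TOP-2 table, and 17.1% and 12.8% in the TOP-1 table. Of 8 pharynx markers 7 rose in each table (medians 6.05 and 5.54), their summed level going from 1220 normalized counts in the control to 48720 after TOP-2/DPY-27 depletion, and from 1184 to 32611 in the TOP-1 table. Of 8 germline markers 7 and 6 rose (medians 4.31 and 3.59), their summed level going from 1329 to 5293 and from 1291 to 3405. Of 10 epidermal markers 3 fell after TOP-2/DPY-27 depletion and 5 after TOP-1/DPY-27 depletion, none rose, and the medians were -0.33 and -0.97. Their summed level went from 62760 to 59312 and from 60928 to 42078 normalized counts, and 2 of the 10, lin-26 and elt-3, are also in the transcription factor list. All 10 epidermal markers were detected, and estimates were below 0 for 7 of them in each table. The lowest, at -3.12 ± 0.38 (adjusted p 2.03e-14) by the authors' deposited table for the TOP-1/DPY-27 depletion, was that of che-14. That gene is needed for secretion at the apical epidermis. In the authors' deposited tables ajm-1 and dlg-1, both on the X, did not pass. Their estimates were 0.45 and 0.39 (TOP-2 table), and 0.56 and 0.54 (TOP-1 table). The level of vab-10 alone went from 24406 to 9418 normalized counts in the TOP-1 table.

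Of 8 body wall muscle markers 2 and 0 rose and none fell (medians 0.16 and 0.26), and of 8 intestinal markers 1 and 2 rose and none fell (0.20 and 0.48), the first value in each pair being from the TOP-2 table. Of 8 neuronal markers 1 and 4 fell and none rose (-0.35 and -0.89). In whole larvae, fewer cells of a type and less RNA per cell cannot be told apart, nor can depletion and strain. The part of these shifts in the furrow collagen values was not tested.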

How the data were processed

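Per the labels' protocols, libraries were stranded by dUTP and held poly(A)-selected RNA of whole larvae. Only 2 result tables of the authors were used, with no value per library. Mean normalized counts, a signal, and log2 fold changes with SEs were deposited by the authors. The score is the Wald statistic and the p-values are those of the authors' DESeq2 test, per the file headers. Tools named, without a role, in the submitters' processing notes are HISAT2 2.2.1, HTSeq 0.13.5, DESeq2 1.30.0, Cufflinks 2.2.1 and CASAVA 1.8. No coordinates are printed, since the sources used here give neither the genome build nor whether counting used strand. Reads per library are unknown, and precision rests on the deposited SEs.

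Computed here with Python 3.11.15, pandas 2.3.3 and scipy 1.17.1 were group levels, solved with 2 libraries a group (assumed for the control), levels per kilobase of exon (Ensembl release 115), and the difference between the depletions. Its SE treats the deposited SEs as independent although the control is common to both, and is therefore too large. Its p came from a Wald z, adjusted by Benjamini-Hochberg over genes whose mean was 10 or more in both tables. The coefficient of variation is the SE times the natural log of 2, an approximation. Symbols came from the RefSeq gene table and matched 98.1% of gene names. Adjusted p-values left missing by the authors stayed missing. All 6 members are named, and from each list at most the 4 smallest adjusted p per table, beside genes named for their role. The genes outside that rule, among them bli-3, bli-4, elt-1, elt-3, nhr-23, gpdh-1, gpdh-2, gcs-1, ajm-1 and dlg-1, were chosen after their values were seen. The members, the 5 gene lists, the cuticle collagen list and the 6 marker lists were chosen with earlier results of these data known. Alternatives covered the threshold, the genes adjusted over, centring, the SE of the difference and the number of control libraries. No sequences of these genes are printed.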

Additional observations from a re-analysis of the deposited data

How the results depend on the processing

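Of the 6 falls after TOP-1/DPY-27 depletion 5 were kept at an adjusted p under 0.01 and 6 under each other alternative. In the main setting 12.8% of all genes tested in that table were called lower. The shares of all genes under these alternatives are not given for the TOP-1 table, so the counts cannot be set against them. For the TOP-2 table, 0 members were called lower under each alternative except centring on the median of the gene's own chromosome class, which called 2 (and 6.44% of all genes tested). That centring moved the members' median there from -1.19 to -1.33, by its construction, since X and autosomal medians differ. Over the members on the X alone, the median in the TOP-1 table was -1.52. With a correlation of 0.5 between the fold changes the depletions differed in 321 genes (2.46%) instead of 15 (0.115%), but in 0 members (lowest adjusted p 0.708). Levels solved with 3 or 4 control libraries moved by less than the spread between libraries, but the control levels of the tables then differed by up to 6.59% and 11.3% for 95% of genes. No library could be left out, and no paired analysis was possible because the tables hold no values per library. The SEs, near 0.6 in the TOP-2 table, limit what could be called there.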

Other observations

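Among the 102 genes with collagen or body shape symbols and a mean of at least 100 in both tables, the 5 whose fold changes lay nearest the furrow collagen medians were col-130, sqt-2, col-180, dpy-20 and col-128. Of these dpy-20 is not a collagen. The authors' deposited table for the TOP-1/DPY-27 depletion gave values for all: sqt-2 stood at -1.76 ± 0.34, dpy-20 at -1.99 ± 0.44 and col-128 at -1.91 ± 0.43, each called lower. The estimates for col-130, at -1.80 ± 1.39, and col-180, at -1.85 ± 1.17, in that authors' deposited table came with SEs more than double those of the furrow collagens and did not pass (adjusted p 0.353 and 0.238).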
